A study of Mus musculus with 14 samples.

Results

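The genes described here are 10 regulators of the G1 phase of the cell cycle: the D-type cyclins Ccnd1, Ccnd2 and Ccnd3, the E-type cyclin Ccne1, the cyclin-dependent kinases Cdk4 and Cdk6, and the kinase inhibitors Cdkn1b, Cdkn1c, Cdkn2c and Cdkn2d. The list was set by gene name and role, with no threshold on a measured value, but with earlier results of these data known. All 10 were found by symbol among 38926 entries of the LSK and MyePro count files and by Ensembl ID among 39179 IDs of the LT-HSC count files.

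In G1, D-type cyclins bind CDK4 or CDK6, and cyclin E binds CDK2. These kinases phosphorylate RB proteins, which then release E2F transcription factors and let the cell enter S phase. INK4 inhibitors (Cdkn2c, encoding p18, and Cdkn2d, encoding p19) bind CDK4 and CDK6 and block the pairing with D-type cyclins, while Cip/Kip inhibitors (Cdkn1b, encoding p27, and Cdkn1c, encoding p57) act on cyclin-CDK complexes. Long-term hematopoietic stem cells are mostly quiescent, p57 is known for holding them there, and CDK6 is known for setting how readily they leave quiescence.

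The study measured RNA in sorted mouse bone marrow cells after deletion of Dpy30, whose protein is part of every SET1/MLL complex, the methyltransferases of histone H3 lysine 4. KO cells had the genotype Mx1-Cre; Dpy30F/- and control cells Mx1-Cre; Dpy30F/+, so both groups carried the Cre transgene and a floxed allele. Mx1-Cre is driven by an interferon-responsive promoter and is not limited to blood cells. In both groups donor marrow was mixed with C57Bl/6J competitor marrow, transplanted into irradiated recipients and exposed to 4 injections of pIpC (7.5 µg/g over 10 days, starting at 7 weeks after transplantation), and harvest followed 2 weeks after the last of these. LT-HSC (long-term hematopoietic stem cells) were measured in 2 KO and 2 control libraries (1 of each genotype for transplant 1 and for transplant 2), with marrow of 7 to 9 mice in a pool and RNA amplification. LSK cells, a mixture of stem cells and multipotent progenitors, and MyePro cells, whose gate the labels do not give, had 1 KO and 1 control library each, with marrow of 2 to 3 mice in a pool and no amplification. The remaining 6 of the 14 samples, ChIP-seq samples of lineage-negative marrow, were not analysed here. The labels state no age for the chimeric mice.

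Gene counts per library ran from 38060087 to 85499797 in LT-HSC and from 6130320 to 20820762 in LSK and MyePro. The targeted gene Dpy30 stood at 42.3 CPM (counts scaled to library size with TMM factors) in KO LSK and 78.0 CPM in control LSK, at 51.8 CPM in KO MyePro and 114 CPM in control MyePro, and at 14.1 and 4.67 CPM in the LT-HSC libraries labelled KO from transplants 1 and 2, against 12.9 and 8.43 CPM in the controls. The transplant 1 library labelled KO was thus not lower in Dpy30. The LT-HSC groups also differed in sex-linked RNA, with 72 and 130 counts from 4 Y-linked genes in the libraries labelled KO and 3750 and 2642 in the controls. Markers of the sorted fractions were present: control MyePro was at least 2-fold above control LSK for 8 of 8 myeloid progenitor markers such as Mpo and Elane and at least 2-fold below it for 8 of 10 LSK and stem cell markers such as Ly6a and Slamf1. In KO the counts were 4 of 8 and 6 of 10. Over all genes, 3.01% were at least 2-fold higher and 7.21% lower in control MyePro than in control LSK. In KO these shares were 3.15% and 1.53%. Other cells' markers moved with genotype as well. Erythroid markers (10 genes, none of them at 0 in LSK or MyePro) summed to 116 CPM in KO LSK and 870 CPM in control LSK and to 453 CPM in KO MyePro and 3777 CPM in control MyePro. Megakaryocyte markers (8 genes, none at 0) summed to 866 and 606 CPM in KO and control LSK, and to 1667 and 168 CPM in KO and control MyePro. Mitochondrial ribosomal RNA took 62.4% and 49.3% of gene counts in the LT-HSC libraries labelled KO and 45.1% and 49.6% in the controls. In these bulk samples a smaller number of cells of a type and less RNA per cell cannot be told apart.

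RefSeq start sites (GRCm38.p6) were matched for 7 of the 10 genes, at 9 promoters of 300 bases (250 before and 50 after the start), while Ccnd1, Ccnd2 and Cdkn1c had no entry. CpG dinucleotides, which help to recruit SET1 and MLL complexes where they are dense and unmethylated, numbered 8 to 41 in these 9 promoters, against a median of 7 over 32851 promoters in the table. The promoters of Ccne1, Cdkn2d and Ccnd3 are shown because these genes differed at least 2-fold between KO and control MyePro cells, with every CpG in capitals. Ccnd3 has 2 listed starts, which its counts do not separate.
Ccne1, chr7:38107441-38107740, minus strand, 41 CpG: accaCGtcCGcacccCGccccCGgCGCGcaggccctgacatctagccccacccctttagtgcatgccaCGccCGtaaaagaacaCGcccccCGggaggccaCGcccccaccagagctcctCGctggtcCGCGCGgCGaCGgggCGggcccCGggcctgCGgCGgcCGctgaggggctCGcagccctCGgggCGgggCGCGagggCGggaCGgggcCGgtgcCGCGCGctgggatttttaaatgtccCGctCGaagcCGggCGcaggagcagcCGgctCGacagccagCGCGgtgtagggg
Cdkn2d, chr9:21291160-21291459, minus strand, 22 CpG: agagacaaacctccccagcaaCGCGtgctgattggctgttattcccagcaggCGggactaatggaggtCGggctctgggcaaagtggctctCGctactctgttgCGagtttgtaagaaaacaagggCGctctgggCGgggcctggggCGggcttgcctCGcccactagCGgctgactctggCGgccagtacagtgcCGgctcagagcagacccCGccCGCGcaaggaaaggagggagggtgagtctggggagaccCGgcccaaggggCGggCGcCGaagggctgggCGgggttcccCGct
Ccnd3 upstream start, chr17:47504801-47505100, plus strand, 15 CpG: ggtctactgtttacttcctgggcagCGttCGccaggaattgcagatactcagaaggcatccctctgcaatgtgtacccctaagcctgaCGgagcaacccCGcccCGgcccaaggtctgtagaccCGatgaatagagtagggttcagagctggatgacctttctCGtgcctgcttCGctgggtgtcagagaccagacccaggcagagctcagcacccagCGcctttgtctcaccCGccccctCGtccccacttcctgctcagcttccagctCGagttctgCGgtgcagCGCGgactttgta
Ccnd3 downstream start, chr17:47593217-47593516, plus strand, 28 CpG: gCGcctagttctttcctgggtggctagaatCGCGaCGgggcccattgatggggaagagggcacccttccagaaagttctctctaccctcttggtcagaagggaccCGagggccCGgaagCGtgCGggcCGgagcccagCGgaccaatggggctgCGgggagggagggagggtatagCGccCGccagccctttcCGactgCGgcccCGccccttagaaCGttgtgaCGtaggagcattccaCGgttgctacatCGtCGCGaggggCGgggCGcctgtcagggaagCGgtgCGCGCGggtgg

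The Cdk4 promoter is shown for its E-boxes, the sequence CACGTG that MYC and related factors bind. Capitals mark each E-box, which reads the same on both strands.
Cdk4, chr10:127063285-127063584, plus strand: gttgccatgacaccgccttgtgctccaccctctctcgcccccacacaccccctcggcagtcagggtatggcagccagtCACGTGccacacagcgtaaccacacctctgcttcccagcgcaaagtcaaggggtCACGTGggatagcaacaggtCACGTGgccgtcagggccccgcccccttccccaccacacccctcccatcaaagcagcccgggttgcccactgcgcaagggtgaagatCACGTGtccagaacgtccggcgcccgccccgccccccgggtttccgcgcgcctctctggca
It held 4 E-boxes, a number reached by 0.0244% of the promoters in the table, of which 7.15% held at least 1. The promoter of Cdk6 and 1 of the 2 promoters of Cdkn2c held 1 each. E2F-type sequences (TTTCCCGC, TTTGGCGC, TTTCGCGC or TTTGCCGC on either strand, none of which overlaps an E-box) had no match in the 9 windows, and 2.26% of all promoters held at least 1. A match is a match of letters only.

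The first comparison set KO against control in LSK and in MyePro cells, and asked how G1 regulators differ in multipotent and more differentiated progenitors without normal Dpy30. With 1 library per group no test was possible. Log2 ratios were called at a 2-fold difference among genes averaging 5 CPM or more over both libraries, and their 95% intervals cover counting error only, since reads without molecular identifiers are not independent molecules and no replicate spread was measured. The D-type cyclins separated: Ccnd1 was lower in both KO populations, Ccnd2 was slightly lower and Ccnd3 was higher.

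**Figure D1:**
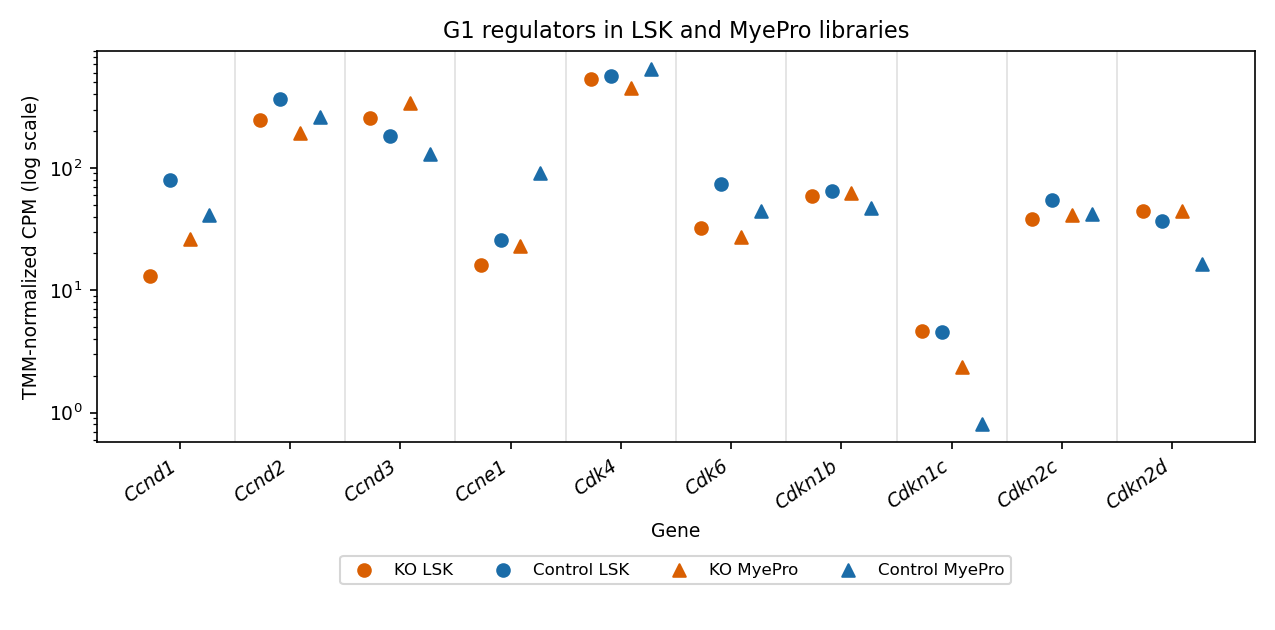
TMM-normalised CPM of the 10 genes (log axis) in the 4 LSK and MyePro libraries, 1 point per library, with KO in orange and control in blue, circles for LSK and triangles for MyePro. Heights may be compared within a gene and not between genes, since gene length is not corrected. Ccnd1 spans 13.0 to 79.8 CPM, and for Ccnd3 the KO point lies above the control point within each population.

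Ccnd1, encoding cyclin D1 (chromosome 7, 144929931 to 144939831), stood at 13.0 CPM (86 counts) in KO LSK and 79.8 CPM (1174 counts) in control LSK. In MyePro it stood at 26.3 CPM in KO and 41.5 CPM in control. The log2 ratio of KO over control was -2.60 in LSK (interval -2.95 to -2.30) and -0.66 in MyePro (interval -0.85 to -0.47). KO LSK was the lowest of the 4 libraries and control LSK the highest. Ccnd2, encoding cyclin D2 (chromosome 6, 127125162 to 127152188), stood at 248 CPM in KO LSK and 368 CPM in control LSK, and at 192 CPM in KO MyePro and 258 CPM in control MyePro. Its log2 ratios of -0.57 and -0.43 were both within 2-fold.

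Ccnd3, encoding cyclin D3, the D-type cyclin known for its part in erythroid and lymphoid progenitors (chromosome 17, 47505051 to 47599689), was the one D-type cyclin with a higher level in both KO populations. It stood at 257 CPM in KO LSK and 183 CPM in control LSK (log2 ratio 0.49, interval 0.40 to 0.58), and at 336 CPM in KO MyePro and 130 CPM in control MyePro (log2 ratio 1.37, interval 1.30 to 1.44). The gene body overlaps Bysl, whose level went the other way, at 44.3 CPM in KO LSK and 62.8 CPM in control LSK, and at 53.7 CPM in KO MyePro and 114 CPM in control MyePro. Whether counting used strand is not known here. Ambiguous reads were set apart, at 2.16% to 2.76% of the totals in LSK and MyePro. Reads in an overlap may thus be lost from both genes or credited to the other, and the effect was not tested.

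The ratio of Ccnd3 to Ccnd2 counts within a library does not depend on how libraries are scaled. It was 1.04 in KO LSK (exact binomial interval 0.970 to 1.11) and 0.497 in control LSK (0.475 to 0.521), and 1.75 in KO MyePro (1.66 to 1.84) and 0.504 in control MyePro (0.481 to 0.528). Both control populations thus held about the same ratio, while the KO populations lay above it and apart from each other. In LT-HSC the ratio was 0.170 and 0.193 in the libraries labelled KO and 0.156 and 0.206 in the controls, so that the groups overlapped there.

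**Figure D2:**
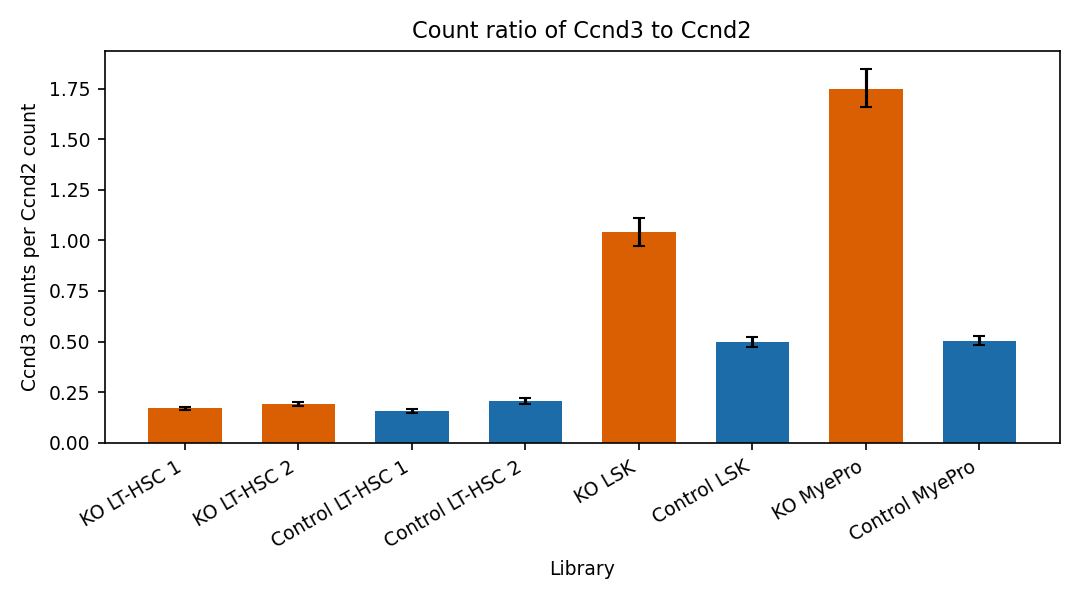
Ccnd3 counts per Ccnd2 count (linear axis from 0) in each of the 8 RNA libraries, KO in orange and control in blue, with error bars giving exact binomial 95% intervals for counting error. The KO LSK and KO MyePro bars, at 1.04 and 1.75, stand above their control bars near 0.50, and the 4 LT-HSC bars lie between 0.156 and 0.206.

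Ccne1, encoding cyclin E1, which partners CDK2 at the G1 to S transition (chromosome 7, 38097984 to 38107490), was high in control MyePro alone. It stood at 23.1 CPM (262 counts) in KO MyePro and 90.3 CPM (1799 counts) in control MyePro, a log2 ratio of -1.96 (interval -2.16 to -1.78). In LSK it stood at 16.03 CPM in KO and 25.8 CPM in control, a log2 ratio of -0.68 (interval -1.01 to -0.37). Its CpG-rich promoter is the first of those printed above. Erythroid markers mostly moved alongside: KO MyePro was at least 2-fold lower for 9 of 10 of them and at least 2-fold higher for 1 (median log2 ratio -3.41). Over all genes 7.99% were lower and 11.3% higher. The gene with the closest pattern to Ccne1 over the 4 libraries was Tfrc, encoding the transferrin receptor, itself on that marker list. Tfrc stood at 79.8 and 118 CPM in KO and control LSK and at 108 and 404 CPM in KO and control MyePro. The part of erythroid cells in the Ccne1 difference was not tested.

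Of the kinases, Cdk6 differed more than Cdk4 in LSK. Cdk6 (chromosome 5, 3341004 to 3531008) stood at 32.1 CPM in KO LSK and 74.2 CPM in control LSK, and at 27.3 CPM in KO MyePro and 44.4 CPM in control MyePro. The log2 ratios were -1.21 in LSK (interval -1.43 to -0.997) and -0.70 in MyePro (interval -0.90 to -0.52). Cdk6 was thus lower in KO than in control within each population. Cdk4 (chromosome 10, 127063535 to 127067288), whose promoter with 4 E-boxes is printed above, stood at 532 CPM in KO LSK and 566 CPM in control LSK, a log2 ratio of -0.09 that turned to 0.05 when libraries were scaled by their totals. In MyePro it stood at 452 CPM in KO and 649 CPM in control (log2 ratio -0.52, interval -0.57 to -0.47). The Cdk4 span overlaps Tspan31, which stood at 56.9 CPM in KO LSK and 33.98 CPM in control LSK, and at 55.1 CPM in KO MyePro and 48.7 CPM in control MyePro.

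Among the INK4 inhibitors, Cdkn2d was higher in KO MyePro and Cdkn2c was not. Cdkn2d (chromosome 9, 21288459 to 21291421) stood at 44.6 CPM (507 counts) in KO MyePro and 16.3 CPM (324 counts) in control MyePro, a log2 ratio of 1.45 (interval 1.25 to 1.66). In LSK it stood at 44.5 CPM in KO and 36.6 CPM in control, a log2 ratio of 0.28 (interval 0.07 to 0.49). Control MyePro was thus the one low library of the 4, while for Ccnd3 KO MyePro was the highest. Markers of other cells moved with these MyePro values. Of those that reached the minimum, 7 of 8 megakaryocyte markers and 5 of 6 macrophage and dendritic markers were at least 2-fold higher in KO MyePro. Over all genes the share at least 2-fold higher in KO than in control MyePro was 11.3%. The part of these other cells in the Cdkn2d and Ccnd3 differences was not tested. Cdkn2c (chromosome 4, 109660876 to 109666756) stood at 38.6 CPM in KO LSK and 54.8 CPM in control LSK (log2 ratio -0.50, interval -0.72 to -0.30), and at 41.3 CPM in KO MyePro and 41.8 CPM in control MyePro (log2 ratio -0.02, and 0.02 with library totals).

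The Cip/Kip inhibitors were close to control in LSK. Cdkn1b (chromosome 6, 134920401 to 134925525) stood at 59.0 CPM in KO LSK and 64.3 CPM in control LSK, a log2 ratio of -0.12 with an interval of -0.30 to 0.05 (0.01 with library totals). In MyePro it stood at 62.7 CPM in KO and 46.8 CPM in control, a log2 ratio of 0.42 (interval 0.28 to 0.56). Cdkn1c (chromosome 7, 143458339 to 143461059) was scarce, with 31 counts (4.69 CPM) in KO LSK, 67 counts (4.55 CPM) in control LSK, 27 counts (2.38 CPM) in KO MyePro and 16 counts (0.803 CPM) in control MyePro. It stayed under the minimum of 5 CPM, and its log2 ratios were 0.04 in LSK (interval -0.62 to 0.68) and 1.41 in MyePro (interval 0.62 to 2.56).

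**Figure D3:**
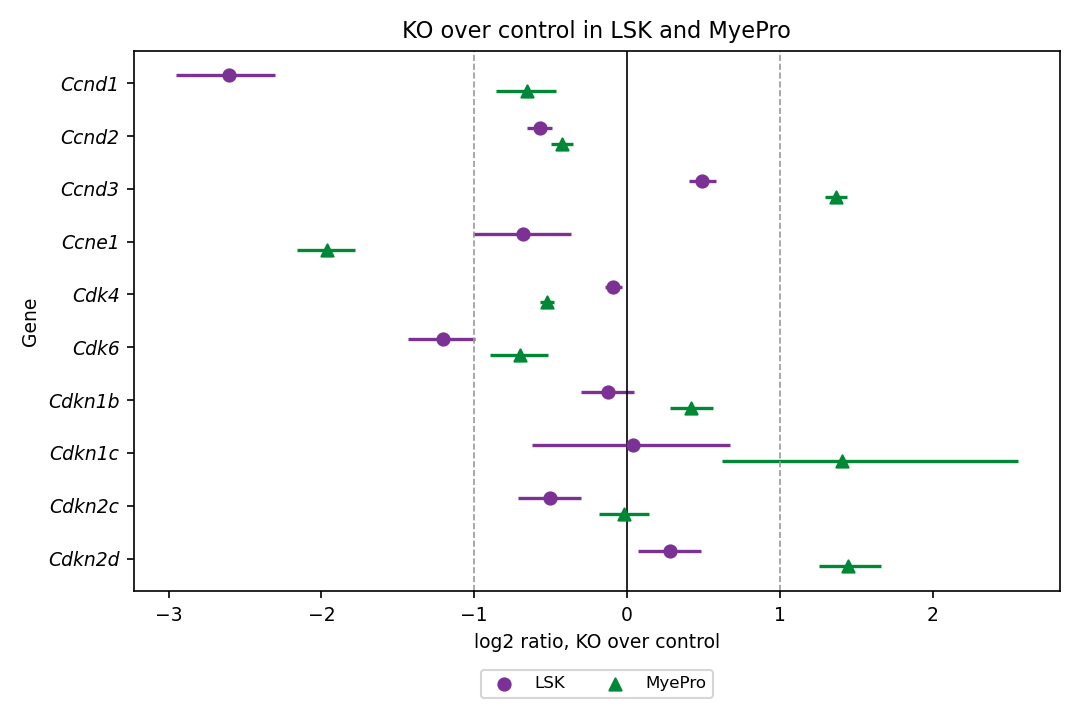
Log2 ratio of KO over control for each gene in LSK (purple circles) and MyePro (green triangles), with horizontal bars for 95% counting-error intervals and dashed lines at a 2-fold difference. Ccnd1 and Cdk6 lie past the lower line in LSK, Ccne1 in MyePro, and Ccnd3 and Cdkn2d lie past the upper line in MyePro, as does Cdkn1c, which is under the expression minimum.

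By count, 9 of the 10 genes reached the minimum in LSK and in MyePro, each with more than 5 CPM in both libraries compared. In LSK 2 of 9 passed 2-fold, both lower (Ccnd1 and Cdk6), against 10.4% of 10311 genes (4.98% higher and 5.39% lower). In MyePro 3 of 9 passed, 2 higher (Ccnd3 and Cdkn2d) and 1 lower (Ccne1), against 19.3% of 10244 genes (11.3% higher and 7.99% lower). The median log2 ratio of the 9 genes was -0.50 in LSK and -0.43 in MyePro, beside -0.04 and -0.08 over all genes compared. The ratio was greater in MyePro than in LSK for 8 of the 10 genes and smaller for Ccne1 and Cdk4. The difference of the 2 log2 ratios (MyePro minus LSK) was 1.95 for Ccnd1 (interval 1.58 to 2.32), 1.17 for Cdkn2d (0.88 to 1.46), 0.88 for Ccnd3 (0.76 to 0.99) and -1.28 for Ccne1 (-1.65 to -0.92). These intervals use a normal approximation to counting error and are no test of the populations.

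Other genes of the same pathway were described from fixed lists. Over all genes, 4.98% were higher and 5.39% lower past 2-fold in KO against control LSK. Of the RB and E2F genes 0 of 13 passed 2-fold in KO against control LSK, where E2f2 had the largest ratio (13.9 CPM in KO and 25.8 CPM in control, log2 ratio -0.88). In MyePro 2 of 12 were lower and 0 higher, beside 7.99% lower and 11.3% higher over all genes. E2f4, a repressor-type E2F, stood at 123 CPM in KO MyePro and 325 CPM in control MyePro (log2 ratio -1.40). E2f6, a repressor that does not bind RB, stood at 37.0 CPM in KO MyePro and 85.0 CPM in control MyePro (log2 ratio -1.20). Of 21 other cyclins, CDKs and regulators 0 passed in LSK, where Ccnb1 had the largest ratio (97.7 CPM in KO and 154 CPM in control, log2 ratio -0.66). In MyePro 1 of the 21 was higher and 1 lower, beside 11.3% higher and 7.99% lower over all genes. Ccng2, a cyclin known from cells that have stopped dividing, stood at 62.4 CPM in KO MyePro and 22.2 CPM in control MyePro (log2 ratio 1.48). Skp2, the F-box protein that marks p27 for degradation, stood at 16.5 CPM in KO MyePro and 44.8 CPM in control MyePro (log2 ratio -1.43).

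Of the other CDK inhibitors only Cdkn1a, encoding p21, reached the minimum, while Cdkn2a and Cdkn2b did not. Cdkn1a stood at 34.5 CPM in KO LSK and 14.5 CPM in control LSK (log2 ratio 1.24), and at 60.3 CPM in KO MyePro and 8.48 CPM in control MyePro (log2 ratio 2.81). Proliferation markers were lower in both populations: 3 of 10 passed 2-fold in LSK (median -0.77) and 4 of 10 in MyePro (median -0.92), and 0 were higher. Over all genes 5.39% were lower past 2-fold in LSK and 7.99% in MyePro. Mki67, the gene of the Ki-67 antigen of cycling cells, stood at 89.4 CPM in KO LSK and 284 CPM in control LSK, and at 102 CPM in KO MyePro and 288 CPM in control MyePro.

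The next comparison followed the same genes from LSK to MyePro, within each genotype. These values come from the same 4 libraries as the KO ratios above and are no independent evidence. In KO cells Ccnd1 was higher in MyePro than in LSK, with a log2 ratio of 1.01 (interval 0.67 to 1.38), against -0.94 in control (interval -1.07 to -0.81). It was the 1 gene of 9 to pass 2-fold in KO, against 4.68% of 10360 genes (3.15% higher and 1.53% lower), and it did not pass with library totals or with counts thinned to the shallowest library. Ccnd3 likewise had a positive ratio in KO, 0.39 (interval 0.30 to 0.47), and a negative one in control, -0.49 (interval -0.57 to -0.41). The KO values of Cdkn1b (0.09), Cdkn2c (0.10) and Cdkn2d (0.01) were within counting error of 0 and turned negative with library totals (Cdkn2d also with DESeq2 size factors).

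Ccne1 and Cdkn2d had the steepest steps in control among the genes above the minimum. Ccne1 had a log2 ratio of MyePro over LSK of 0.52 in KO (interval 0.19 to 0.86) and 1.803 in control (interval 1.65 to 1.97), where it was 3.49-fold higher in MyePro. Cdkn2d had 0.01 in KO (interval -0.20 to 0.22) and -1.16 in control (interval -1.38 to -0.97), where it was 2.24-fold lower in MyePro. These 2 of 9 genes passed 2-fold in control, against 10.2% of 10059 genes (3.01% higher and 7.21% lower). Cdkn1c, under the expression minimum, had a log2 ratio of -0.94 in KO (interval -1.78 to -0.19) and -2.30 in control (interval -3.39 to -1.70).

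**Figure D4:**
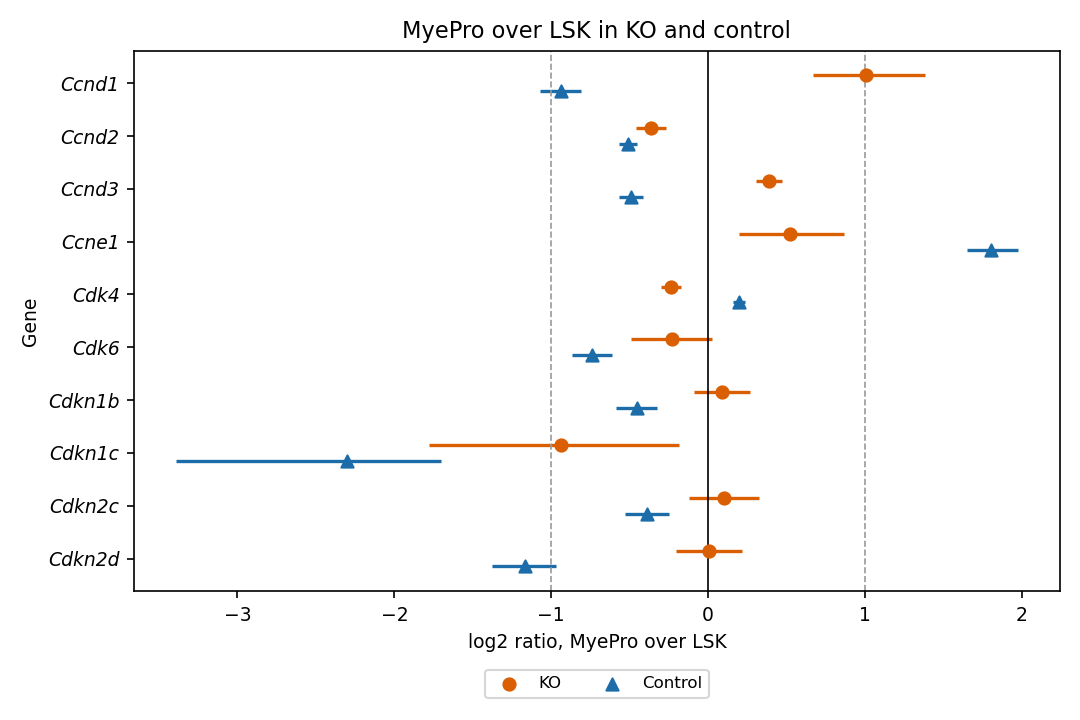
Log2 ratio of MyePro over LSK for each gene in KO (orange circles) and control (blue triangles), with bars for 95% counting-error intervals and dashed lines at a 2-fold difference. The KO and control points of Ccnd1 lie on opposite sides of 0, at 1.01 and -0.94, and Ccne1 is at 0.52 in KO and 1.803 in control.

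Among the wider lists, 0 of 12 RB and E2F genes and 0 of 21 other cyclins, CDKs and regulators passed 2-fold from LSK to MyePro in KO. The share over all genes was 4.68%. The largest KO ratio of the first list was that of Rbl1, encoding the RB relative p107 (73.0 CPM in KO MyePro and 101.5 CPM in KO LSK, log2 ratio -0.47). In the second list it was that of Skp2 (16.5 and 29.0 CPM, log2 ratio -0.81). In control 0 of 13 and 1 of 21 passed, against 10.2% of all genes. The 1 gene was Ccng2 (22.2 CPM in control MyePro and 48.0 CPM in control LSK, log2 ratio -1.10), and the largest ratio of the RB and E2F list was that of E2f4 (325 CPM in control MyePro and 182 CPM in control LSK, log2 ratio 0.84). Cdkn1a had a log2 ratio of 0.80 in KO and -0.76 in control.

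The LT-HSC comparison had 2 libraries per group and was tested with edgeR across 12844 genes. No difference between the libraries labelled KO and the controls was detected for the 10 genes: 0 of 10 passed a Benjamini-Hochberg adjusted p of 0.05 with edgeR's quasi-likelihood test, 0 had an unadjusted p under 0.05 (2.29% of all genes did), and DESeq2 and limma-voom also called 0. The smallest unadjusted p was 0.433, for Ccnd3, and the adjusted p was 0.999 for each gene (edgeR). Log2 fold changes ran from -0.28 (Cdkn2c) to 0.25 (Ccnd3), with 5 positive and 5 negative and a median of -0.04, beside 0.00 over all genes tested. For 0 of the 10 genes did both libraries labelled KO lie above both controls, or both lie below them, against 27.7% of all genes. Across all genes the test called 2, or 0.0156%, and 4 with transplant as a block. The 2 were the Y-linked Kdm5d and Eif2s3y. The standard errors of the 10 log2 fold changes ran from 0.254 (Cdk6) to 0.976 (Ccnd1) in this fit, which did not block on transplant. With the block, 0 of the 10 genes had an unadjusted p under 0.05 (edgeR).

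For the D-type cyclins, the values followed the transplant more than the genotype. Ccnd1 stood at 30.04 CPM (transplant 1) and 5.39 CPM (transplant 2) in the libraries labelled KO and at 28.1 and 4.32 CPM in the controls. Transplant 1 was thus 5.58-fold above transplant 2 in KO and 6.50-fold above it in control. The log2 fold change of KO over control was 0.13 ± 0.976 (SE, edgeR, n = 2 per group). This fit did not block on transplant, so its error includes the spread between transplants. With transplant as a block the log2 fold change was 0.21 (unadjusted p = 0.564, edgeR). Without the transplant 1 library labelled KO the unblocked fit gave -1.59, since it then sets a transplant 2 library against controls of both transplants. Leaving out that library, which was not lower in Dpy30, also gave -0.12 for Ccnd2, 0.02 for Ccnd3, -0.54 for Cdk4 and 0.34 for Cdkn2c, again with 0 of 10 genes called. Within transplants 1 and 2 the log2 ratios of KO over control were 0.10 and 0.32. Ccnd2 stood at 221 and 144 CPM in the libraries labelled KO and at 192 and 120 CPM in the controls. Its within-transplant log2 ratios were 0.20 and 0.26, and its log2 fold change was 0.22 ± 0.342 (SE, edgeR, no block). With transplant as a block the log2 fold change was 0.23 (unadjusted p = 0.321, edgeR). Ccnd3 stood at 37.4 and 27.7 CPM in the libraries labelled KO and at 29.9 and 24.7 CPM in the controls. Its within-transplant log2 ratios were 0.32 and 0.16. Ccne1 was near the detection minimum, at 2.80 and 2.73 CPM in the libraries labelled KO and 4.06 and 2.15 CPM in the controls.

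**Figure D5:**
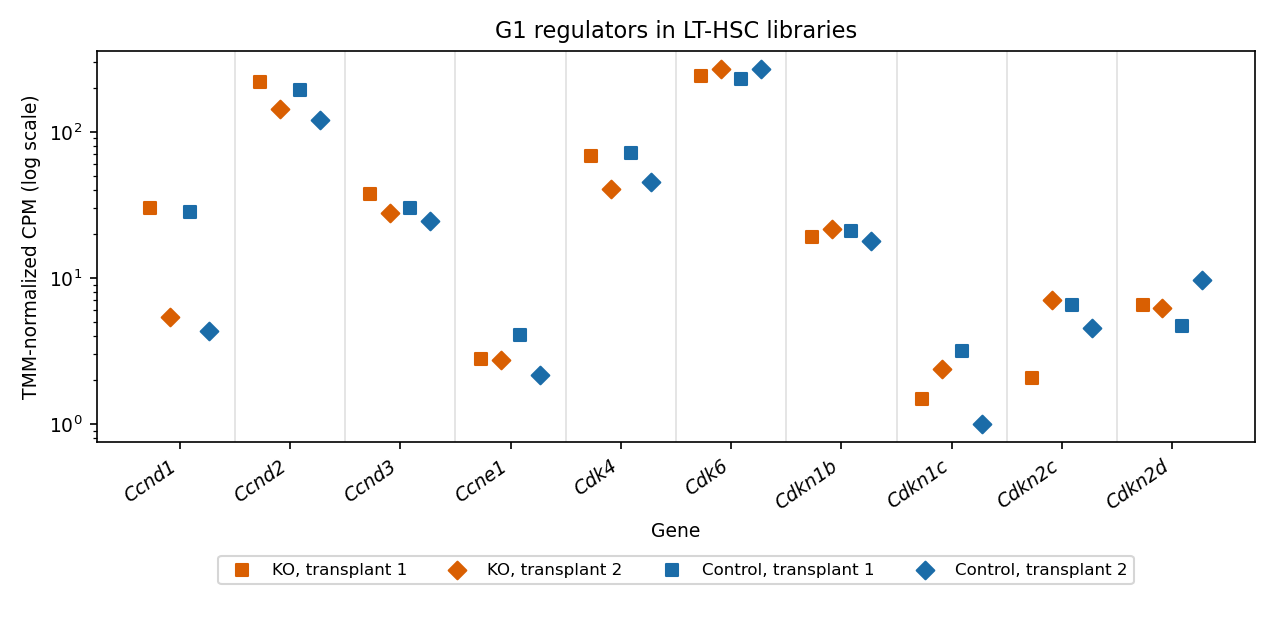
TMM-normalised CPM of the 10 genes (log axis) in the 4 LT-HSC libraries, with KO in orange, control in blue, squares for transplant 1 and diamonds for transplant 2. For Ccnd1 the transplant 1 points (30.04 and 28.1 CPM) lie above the transplant 2 points (5.39 and 4.32 CPM) in both genotypes, and KO and control points overlap for every gene.

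Of the kinases, Cdk4 had this order and Cdk6 did not. Cdk4 stood at 68.5 and 40.5 CPM in the libraries labelled KO and at 72.0 and 45.4 CPM in the controls, again higher in transplant 1 of each genotype, with within-transplant log2 ratios of -0.07 and -0.17. Cdk6 was even across the 4 libraries, at 242 and 269 CPM in the libraries labelled KO and 230 and 271 CPM in the controls (256 ± 18.96 and 251 ± 29.0 CPM, SD, n = 2 each). Its log2 fold change of 0.03 ± 0.254 (SE, edgeR) had the smallest standard error of the 10 genes. The 2-fold lower Cdk6 level of KO LSK was therefore not seen in LT-HSC, but the populations were amplified, counted and normalised differently, and the difference between them was not tested.

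For each inhibitor among the 10 genes the ratio of KO over control changed sign between the transplants. Cdkn1b stood at 18.97 and 21.5 CPM in the libraries labelled KO and at 21.0 and 17.7 CPM in the controls. Its within-transplant log2 ratios were -0.15 and 0.28. Cdkn1c, the p57 gene, stood at 1.47 and 2.39 CPM (73 and 163 counts) in the libraries labelled KO and at 3.17 and 0.994 CPM (147 and 43 counts) in the controls, so that the log2 ratio of KO over control was -1.11 in transplant 1 and 1.27 in transplant 2. Cdkn2c was lowest in the transplant 1 library labelled KO, with 2.08 and 7.00 CPM in the libraries labelled KO and 6.56 and 4.51 CPM in the controls, and within-transplant log2 ratios of -1.66 and 0.64. Cdkn2d stood at 6.47 and 6.24 CPM in the libraries labelled KO and at 4.71 and 9.66 CPM in the controls, with ratios of 0.46 and -0.63. Of the 10 genes, 4 had the same sign in both transplants (Ccnd1, Ccnd2 and Ccnd3 positive, Cdk4 negative).

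The wider pathway gave 0 calls in LT-HSC among 13 RB and E2F genes, 21 other cyclins, CDKs and regulators and 10 proliferation markers with edgeR. Of these genes 0 had an unadjusted p under 0.05 (2.29% of all genes did). In the RB and E2F list the largest log2 fold change was that of E2f1 (8.85 CPM in the libraries labelled KO and 15.9 CPM in controls on average, -0.85, adjusted p = 0.999, edgeR). Among the other cyclins, CDKs and regulators it was that of Cdc25b, a CDK-activating phosphatase gene (3.16 and 7.82 CPM, -1.31, adjusted p = 0.999, edgeR). Cdkn1a varied with the transplant, at 3.08 and 17.3 CPM in the libraries labelled KO and 1.62 and 12.6 CPM in the controls. Within each transplant the library labelled KO was the higher, and the log2 fold change was 0.52 (unadjusted p = 0.635, adjusted p = 0.999, edgeR, no block). Without the block, the error of this Cdkn1a value includes the spread between transplants. Mki67 stood at 594 and 454 CPM in the libraries labelled KO and at 511 and 638 CPM in the controls.

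Likeness of pattern was described over the 4 LSK and MyePro libraries as the distance between centred log2 values, among 8665 genes averaging 10 CPM or more. Besides Tfrc for Ccne1, the nearest gene was S100a13 for Ccnd3, Ddah2 for Cdkn2d, H2-Q7 for Ccnd2, Bach1 for Cdkn1b, Mllt6 for Cdk6, Zfp956 for Cdk4, Zfp788 for Cdkn2c and Rcn3 for Ccnd1. The distance was 0.50 log2 units for Ccnd1 and between 0.02 and 0.11 for the others. Further genes lay close as well: the 10th nearest was at 0.05 for Cdk4, 0.08 for Cdkn1b, 0.42 for Ccne1 and 0.71 for Ccnd1.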

How the data were processed

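RNA was measured in 8 libraries of sorted mouse marrow cells. The authors deposited raw gene counts. Per the submitters' processing notes, tools included TopHat2, Picard 1.126, HTSeq 0.6.0 and DESeq 3.0 with build mm10, while the sources used here give neither their order nor the annotation or strand setting. Per the labels' protocols, polyA selection was done in 2 rounds, and the Ovation RNA-seq System V2 was used to amplify RNA of LT-HSC. Of 39179 LT-HSC Ensembl IDs, 37607 (96.0%) matched a symbol, and the RefSeq table (GRCm38.p6) gave the positions.

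Rows without a gene were dropped, as was an entry named DPY30-SPKIG: reads without a feature made up 16.7% to 26.0% of LT-HSC file totals and 2.40% to 6.25% elsewhere, and 92 ERCC entries were set aside in LT-HSC. The LT-HSC and the LSK and MyePro sets were normalised apart (TMM factors from genes that reached 1 CPM in 2 or more of the 4 libraries). LT-HSC was tested with edgeR 4.0.16 (R 4.3.3, quasi-likelihood, two-sided, Benjamini-Hochberg adjusted over 12844 genes, no block). DESeq2 1.42.0 and limma-voom (limma 3.58.1) were alternatives, and the edgeR fit was tested on simulated data. LSK and MyePro ratios used a prior count of 2, and intervals were exact conditional binomial. Per the labels, LT-HSC libraries with equal numbers come from 1 transplant, which pairs them, and their deviations around the group mean had a correlation of 0.292 over genes. Replicates are pools of mice. Gene lengths were not used here, so levels were not compared between genes.

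The genes, lists and tests were chosen with earlier results of these data known. All 10 genes were named in every comparison. From the RB and E2F, other cyclin and other inhibitor lists, up to 3 genes per direction past the call, or else the largest ratio, were named. Bysl and Tspan31 were added for their overlap. The span of Ccnd1 also overlaps the protein-coding LTO1, which had no LSK or MyePro entry under that symbol. Those of Ccnd2, Ccnd3 and Cdk6 overlap long non-coding RNA genes. Marker lists for B, T and NK, mast, neutrophil, macrophage and stromal cells were summed as well. In KO against control MyePro these gave 16.7 and 127, 640 and 207, 1290 and 707, 618 and 26.2, 409 and 131, and 220 and 85.0 CPM. In KO against control LSK they gave 49.9 and 162, 585 and 206, 861 and 599, 172 and 11.3, 256 and 119, and 218 and 117 CPM. In each population the genes that reached the minimum were, in this order, 2 of 8, 3 of 8, 6 of 6, 3 of 8, 6 of 8 and 3 of 8. The mast cell list was split, with 3 positive and 3 negative ratios in each population. Some B, T and NK, neutrophil and stromal markers had 0 counts in a library. The part of these cells in the results was not tested.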

Additional observations from a re-analysis of the deposited data

Results flagged for a closer look

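Several genes moved in opposite directions in 2 settings, which was not tested since the LSK and MyePro groups have 1 library each. From LSK to MyePro, the log2 ratio in KO minus that in control was 1.95 for Ccnd1, 0.88 for Ccnd3, 0.54 for Cdkn1b, 0.49 for Cdkn2c, 1.17 for Cdkn2d and -0.43 for Cdk4, with the KO and control ratios on opposite sides of 0 for each. For Ccnd1, Ccnd3 and Cdk4 the counting-error intervals of both ratios lay clear of 0, and for Cdkn1b, Cdkn2c and Cdkn2d the KO interval included it. The same 0.54 for Cdkn1b is also the difference of its KO over control ratio between MyePro (0.42) and LSK (-0.12).

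In LT-HSC both transplants gave a positive ratio of KO over control for Ccnd1 (log2 fold change 0.13) and Ccnd2 (0.22), while LSK and MyePro gave negative ratios for both genes. Neither LT-HSC value differed from 0 beyond its error, nor did either with transplant as a block (unadjusted p = 0.564 and 0.321, edgeR). The difference between populations was not tested.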

How the results depend on the processing

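In LT-HSC the 10 genes gave 0 calls under the 12 alternatives run. The count over all genes was 2, and it was 0 with DESeq2 size factors, 4 with library totals, 4 with totals without mitochondrially encoded genes, 1 with ERCC totals, 4 without the filter, 14 with DESeq2, 1 with limma-voom and 4 with transplant number as a replicate block, which changed no call among the 10 genes. It ranged from 0 to 5 when 1 library was left out (0 without either control, 5 without KO LT-HSC 2). Signs of the small log2 fold changes were not stable, and the causes were not tested. With library totals Ccnd1 gave -0.68, Ccnd2 -0.25, Ccnd3 -0.18, Cdk6 -0.29 and Cdkn1b -0.26, as the median of all genes moved to -0.35. Without mitochondrially encoded genes in the totals Ccnd1 gave -0.15, Cdk6 -0.0599 and Cdkn1b -0.0176. With ERCC totals Ccnd1 gave -0.68, Cdkn1c 0.10 and Cdkn2c 0.15. Cdkn1c gave 0.0944 with limma-voom and 0.0732 under the transplant block. With 1 library left out, where the lone library is assumed to vary like the other group, the values ran from -1.59 to 2.04 for Ccnd1, -0.12 to 0.61 for Ccnd2, -0.54 to 0.37 for Ccne1, -0.54 to 0.27 for Cdk4, -0.0755 to 0.16 for Cdk6, -0.0447 to 0.20 for Cdkn1b, -0.70 to 0.97 for Cdkn1c, -1.41 to 0.34 for Cdkn2c and -0.60 to 0.44 for Cdkn2d.

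In LSK and MyePro no gene past 2-fold changed sign under the 5 alternatives run. A minimum mean of 1 CPM, which admits more genes, raised the counts past 2-fold to 2076 from 1069 (LSK KO against control), 3278 from 1978 (MyePro KO against control), 1825 from 1028 (MyePro against LSK in control) and 1327 from 485 (MyePro against LSK in KO). The 1 of 9 genes past 2-fold from LSK to MyePro in KO became 0 with library totals and 0 with thinned counts. Library totals moved the median of all genes by 0.13 in KO against control LSK, where the calls became 648 higher and 457 lower in place of 513 and 556, and by -0.13 in KO MyePro against KO LSK, where they became 246 and 234 in place of 326 and 159. The difference of KO ratios between MyePro and LSK had an interval clear of 0 for 10 genes, and for 9 with library totals or DESeq2 size factors. Levels per length and their order were not computed.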

Other observations

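The balance of the CDK4 and CDK6 kinase genes within a library, which no library scaling affects, differed between the LT-HSC transplants. Cdk6 counts per Cdk4 count were 3.54 (transplant 1) and 6.65 (transplant 2) in the libraries labelled KO and 3.20 and 5.97 in the controls, with exact binomial intervals of 3.41 to 3.68, 6.39 to 6.92, 3.08 to 3.33 and 5.69 to 6.26. The transplants lay further apart than the genotypes, and within each transplant the library labelled KO was slightly the higher. In the libraries made without amplification the ratio was 0.0602 in KO LSK and 0.131 in control LSK, and 0.0604 in KO MyePro and 0.0685 in control MyePro. The 2 sets of libraries differ in amplification and annotation, so their ratios are given side by side only.

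Cdkn2d counts per Cdkn2c count were 1.15 in KO LSK and 0.669 in control LSK, and 1.08 in KO MyePro and 0.388 in control MyePro. In LT-HSC they were 3.12 and 0.891 in the libraries labelled KO and 0.717 and 2.14 in the controls, with no common order.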
